A study of Rattus norvegicus with 6 samples.

Results

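The auxiliary subunits of the AMPA receptor were followed in cultured rat retinal ganglion cells (RGCs), the neurons whose axons form the optic nerve. The set was defined by name, with no measured value in the rule. It was chosen with earlier results of these data known. Its 10 gene symbols cover the transmembrane AMPA receptor regulatory proteins (TARPs: Cacng2, Cacng3, Cacng4, Cacng5, Cacng7 and Cacng8). The others are the cornichon homologues Cnih2 and Cnih3, and Shisa9 and Gsg1l. Matched to the first symbol of each annotation entry, 8 of the 10 were found among the 17366 transcripts of the deposited table, and Shisa9 and Gsg1l were not analysed here. The entry for Cnih2 also carries Cnih3 as an older alias, and Cnih3 has an entry of its own, so the pair was kept apart. All 8 passed the filter on low values (FPKM of 1 or more in 3 or more libraries), and each was above 1 FPKM in all 6 libraries. FPKM counts fragments scaled to transcript length and to library size, so levels can be set side by side between genes, within the limits of the transcript lengths the table assigns.

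Polyadenylated RNA was measured in 6 libraries from RGC cultures of Sprague Dawley rats with a labelled age of postnatal day 5, grown for 10 days. Of these, 3 received Chrdl1 at 1 µg/ml for 12 h and 3 received vehicle, 0.1% BSA with 4 mM HCl. Chrdl1 (chordin-like 1) is a secreted antagonist of bone morphogenetic proteins (BMPs) that astrocytes release, and it has been studied for its effect on synaptic AMPA receptors containing GluA2. No genetic change is named for any group. Every vehicle library has a Chrdl1 partner with the same numeric code in its title, and the letters A, B and C stand for the pairs in ascending order of that code. Triplets of values are given in that order. The labels leave the meaning of these codes open and name no animals, so p-values measure the spread between libraries, which may be technical. The comparison asks whether 12 h of added Chrdl1 changes the RNA of the proteins that escort and tune AMPA receptors.

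AMPA receptors are tetramers of GluA subunits that carry most fast excitatory transmission, including the input of RGCs from bipolar cells. Auxiliary subunits bind the pore-forming subunits in the endoplasmic reticulum or at the membrane. TARPs, which share the fold of the claudins and of a muscle calcium channel subunit, promote surface delivery, anchor receptors to scaffolds such as PSD-95 and slow their closing. Cornichons began in evolution as export receptors of the secretory pathway, and in vertebrate neurons they also stay with AMPA receptors and slow deactivation and desensitization.

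The culture was checked first, because the extraction protocol in the labels names visual cortex while every other label names RGCs. The 7 RGC markers in the table summed to 1971 to 2328 FPKM per library, mostly Sncg at 819 to 1105 FPKM and Nefl at 524 to 632 FPKM. Rbpms was at 78.4 to 98.1, Pou4f2 at 24.6 to 38.0 and Isl1 at 36.1 to 48.3 FPKM. Of the cortical markers, Neurod6 was at most 0.382 FPKM. Slc17a7, a glutamate transporter on the cortical list, was at 54.3 and 57.5 FPKM in pair C and at 2.44 to 7.26 FPKM elsewhere. The 6 astrocyte and Müller glia markers summed to 52.1 to 89.8 FPKM, nearly all of it Glul, glutamine synthetase, at 51.5 to 82.5 FPKM, while Gfap and Aqp4 were at most 1.24 and 0.017 FPKM. The 5 amacrine markers summed to 62.1 to 78.2 FPKM, mostly Gad2, the GABA-synthesizing enzyme, at 51.2 to 68.3 FPKM. On the same list, Tfap2a was at 0.082 to 0.637 and Tfap2b at 0.232 to 2.08 FPKM, and neither was tested. The pairs differed in markers of other retinal and immune cells. The 4 bipolar cell markers summed to 41.7 and 43.5 FPKM in pair C and to 1.48 to 2.86 FPKM in the other 4 libraries. The 5 photoreceptor markers summed to 49.4 and 49.7 FPKM in pair C against 2.35 to 5.59 FPKM. The 5 microglial markers summed to 15.0 FPKM (vehicle) and 8.34 FPKM (Chrdl1) in pair B and to 109 to 169 FPKM elsewhere, with Cx3cr1 at 0.063 FPKM or less in all 6. Of the 8 oligodendrocyte lineage markers, which summed to 14.0 to 20.1 FPKM with Mbp and Mog highest, Olig2 and Sox10 were at most 0.016 and 0.014 FPKM. Recovered read totals ran from 14546600 in the vehicle library of pair B to 26551700 in that of pair C, and each auxiliary subunit rested on 41 to 1643 reads per library.

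Of the 6 TARP genes, 4 lie in a pair of clusters with muscle-type relatives that are not AMPA receptor subunits. On rn6, the build of the table, Cacng6, Cacng8 and Cacng7 follow each other on the minus strand of chromosome 1 between 64308406 and 64401857. Cacng1, Cacng4 and Cacng5 follow each other on the minus strand of chromosome 10 between 95921479 and 96131710. Neighbours in a cluster were far apart in level. Cacng6 and Cacng1 had 0 reads in all 6 libraries, which allows at most 0.145 to 0.265 FPKM for Cacng6 and 0.138 to 0.253 FPKM for Cacng1, taking 3 reads per library as the limit and counting error only. Cacng7 averaged 75.4 FPKM over the 6 libraries and Cacng8, next to it, 2.29 FPKM. Cacng4 and Cacng5 averaged 30.4 and 15.7 FPKM. The remaining TARPs lie alone: Cacng2 on chromosome 7 (119229268 to 119352033) and Cacng3 on chromosome 1 (192613766 to 192708371).

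Upstream sequence differed widely between members, and the windows of Cacng2 and Cnih3 are shown because these genes followed the same order across the 3 pairs, described further on, from opposite ends of base composition. Both are the 250 bases before the annotated start in RefSeq on GRCr8, a later assembly than that of the table, 5′ to 3′ on the gene's strand. Capitals mark GGCGCC, a GC-rich element bound by Smad proteins at BMP target genes.
Cacng2: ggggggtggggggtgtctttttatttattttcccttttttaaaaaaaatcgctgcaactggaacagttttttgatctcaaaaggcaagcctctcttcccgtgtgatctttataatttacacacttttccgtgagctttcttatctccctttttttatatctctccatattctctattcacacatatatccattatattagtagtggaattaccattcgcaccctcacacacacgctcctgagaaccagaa
Cnih3: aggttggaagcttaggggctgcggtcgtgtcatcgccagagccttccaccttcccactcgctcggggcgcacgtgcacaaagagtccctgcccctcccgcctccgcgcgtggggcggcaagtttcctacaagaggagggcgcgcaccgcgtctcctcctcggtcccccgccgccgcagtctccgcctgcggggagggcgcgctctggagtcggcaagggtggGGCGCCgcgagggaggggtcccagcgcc
The first lies at chr7:111577758-111578007 (minus strand) and the second at chr13:95631219-95631468 (plus strand). GC content was 38.4% for Cacng2, with 10.5% of all 33469 windows lower, and 72.4% for Cnih3, with 94.3% lower. The windows held 5 and 29 CpG dinucleotides, against a median of 5. GGCGCC, its own reverse complement, was found once in the Cnih3 window and in 8.69% of all windows. Neither it, nor the Smad palindrome GTCTAGAC (0.173% of all windows), nor the cyclic AMP element TGACGTCA (1.59%) was found in the windows of Cacng2, Cacng3, Cacng5, Cacng8 or Cnih2. The Cnih3 window held neither of the last 2 motifs. A match is a run of letters and not a shown site. Windows were found for 6 of the 8 members, and Cacng4 and Cacng7 had none.

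Type I TARPs are the closest relatives of stargazin and carry a tail that binds PSD-95 family scaffolds. Cacng2 encodes stargazin itself, the subunit missing in the ataxic stargazer mouse. It was at 17.6, 21.97 and 14.1 FPKM in vehicle and at 17.1, 21.4 and 14.8 FPKM in the Chrdl1 libraries. The groups overlapped fully, and pair B was highest and pair C lowest under both treatments. Vehicle averaged 17.9 ± 3.96 FPKM and Chrdl1 17.8 ± 3.35 FPKM (SD, n = 3 each). On log2(FPKM + 1) the fold change, Chrdl1 over vehicle, was -0.00011 ± 0.19 (SE). Cacng3, its nearest relative in sequence, was the sole member with 1 sign in every pair. It was at 20.7, 16.5 and 13.5 FPKM in vehicle and at 18.7, 14.3 and 11.4 FPKM in Chrdl1 libraries. Each Chrdl1 library was below its partner, although the groups overlapped, with means of 16.9 ± 3.64 and 14.8 ± 3.69 FPKM.

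Cacng4, a TARP prominent in immature brain, was the most abundant of type I. It was at 34.4, 28.3 and 26.3 FPKM in vehicle and at 32.9, 35.4 and 25.4 FPKM in Chrdl1 libraries. The groups overlapped: Chrdl1 was above vehicle in pair B and slightly below it in A and C. The log2 fold change of 0.068 ± 0.16 became -0.055 without pair B, with the title code as a block. Cacng8, best known from the hippocampus, where it dominates, was the least abundant member here. It was at 1.85, 2.24 and 2.21 FPKM in vehicle and at 1.77, 3.02 and 2.65 FPKM in Chrdl1 libraries, from 41 to 87 reads per library. It was higher with Chrdl1 in pairs B and C and lower in pair A, and the groups overlapped. Its log2 fold change was 0.15 ± 0.19.

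Type II TARPs, Cacng5 and Cacng7, have a different tail and act on a narrower range of receptor properties. Cacng7 was the most abundant member in all 6 libraries. It was at 73.7, 78.4 and 71.1 FPKM in vehicle and at 78.3, 81.4 and 69.3 FPKM in Chrdl1 libraries, so that the groups overlapped and every library lay close to the mean. The log2 fold change was 0.034 ± 0.095, and its 95% interval, from -0.19 to 0.26, was the narrowest of the 8. Cacng5 was at 21.5, 12.7 and 12.0 FPKM in vehicle and at 23.4, 13.3 and 11.7 FPKM in Chrdl1 libraries. Both pair A libraries were above the other 4 libraries by a wide margin, whatever the treatment. Its log2 fold change of 0.049 ± 0.30 had the widest interval, from -0.67 to 0.77.

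Of the cornichons, Cnih2 was higher in mean FPKM than 83.6% of tested transcripts and Cnih3 than 52.7%. Cnih2 (chromosome 1, 220474485 to 220480132, minus strand) was at 47.2, 33.2 and 46.6 FPKM in vehicle and at 52.1, 32.0 and 37.3 FPKM in Chrdl1 libraries. Its sign differed between pairs, at 0.14, -0.049 and -0.31 on the log2 scale. The mean of -0.074 ± 0.21 came to 0.045 without pair C, with the title code as a block. Cnih3 (chromosome 13, 99663150 to 99770625, plus strand) was at 13.3, 19.5 and 10.0 FPKM in vehicle and at 13.0, 17.2 and 10.8 FPKM in Chrdl1 libraries. Pair B was highest under both treatments and the groups overlapped. The listed Cnih3 transcript is only 476 bases, the shortest of the set, and it rested on 124 to 187 reads per library.

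**Figure D1:**
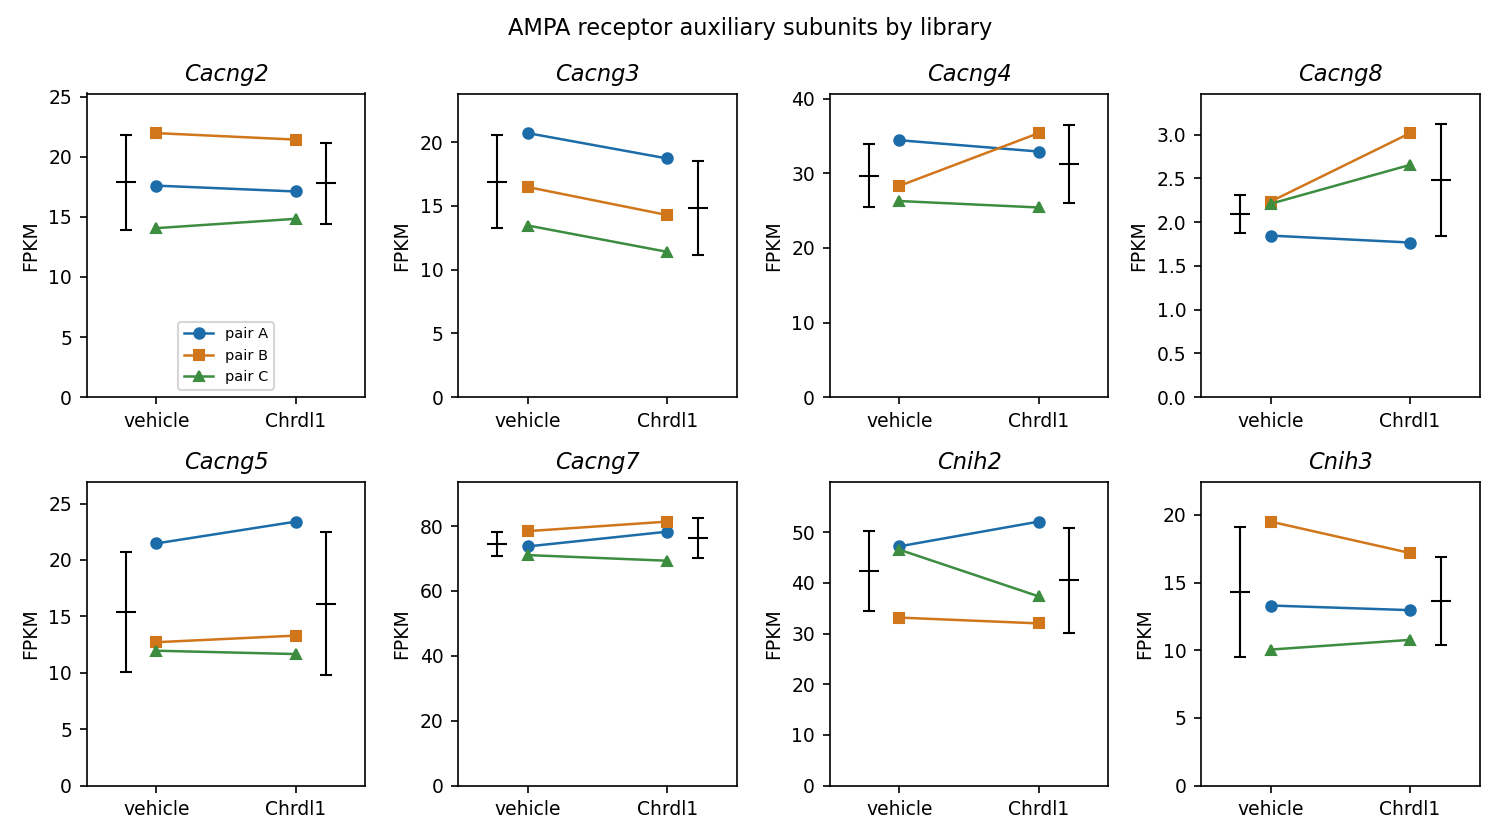
FPKM (vertical axes, from 0) of the 8 auxiliary subunits under vehicle and Chrdl1 (horizontal axes); each line connects a vehicle library to its partner, and black bars give the mean ± SD of 3 libraries. The 3 pairs occupy ranges that do not overlap for 6 of the 8 genes, all but Cacng4 and Cacng8, as for 34.4% of tested transcripts.

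In order of mean level over the 6 libraries, Cacng7 (75.4 FPKM) was followed by Cnih2 (41.4), Cacng4 (30.4), Cacng2 (17.8), Cacng3 (15.8), Cacng5 (15.7), Cnih3 (14.0) and Cacng8 (2.29). Cacng7 stood above Cnih2, Cacng4 above Cacng2, and Cnih3 above Cacng8 with no overlap between libraries. Cnih2 exceeded Cacng4 in 5 of 6 libraries, with overlapping ranges. Among Cacng2, Cacng3, Cacng5 and Cnih3, Cacng2 was above Cnih3 in 6 of 6 libraries, and every other pairing kept its order in only 3 or 4 of 6. Against all 10390 tested transcripts, whose median mean level was 12.9 FPKM, Cacng7 was higher than 92.7% and Cacng8 higher than 10.0%.

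Chrdl1 changed none of the 8 auxiliary subunits at the threshold. Under limma, 0 of 8 passed an adjusted p of 0.05 (each adjusted p = 0.9998) and 0 were at an unadjusted p under 0.05. The background gives little room for a call in this fit: 0.00% of all tested transcripts were called, with 18 at an unadjusted p under 0.05 by limma and 5 by limma voom. The fit has no term for the title code, so differences between codes count as spread, and the SEs given above include them. Of the 8 fold changes 4 were positive and 4 negative, with a median of 0.017. Over all tested transcripts 3989 were positive and 6401 negative, with a median of -0.028. No member's Chrdl1 libraries were all above or all below its vehicle libraries, which happened for 2.44% of tested transcripts. The bipolar marker sums given above ran from 1.48 to 41.7 FPKM in vehicle and from 2.08 to 43.5 FPKM in Chrdl1 libraries, and the RGC sums from 2070 to 2328 and from 1971 to 2321 FPKM, overlapping in both cases.

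The block by title code narrowed these values and made no call. The median half-width of a member's 95% interval fell from 0.48 to 0.17 on the log2 scale, and 0.00% of all tested transcripts were called, with 535 at an unadjusted p under 0.05. With the block the intervals ran from -0.16 to 0.16 for Cacng2, from -0.10 to 0.17 for Cacng7, from -0.25 to 0.10 for Cnih2 and from -0.11 to 0.42 for Cacng8. These intervals cover the size of the change and are no limit of detection. Cacng3 had a log2 fold change of -0.18 ± 0.075 with the block, at -0.14, -0.19 and -0.22 in the 3 pairs, an interval from -0.35 to -0.021. It did not pass (limma adjusted p = 0.872, unadjusted p = 0.0298). Being lower in all 3 pairs was common: 19.5% of tested transcripts were, and 7.55% were higher in all 3. Cacng3 was 1 of 8 members lower in all 3 pairs, and 0 of 8 were higher in all 3. The summed microglial markers were lower with Chrdl1 in all 3 pairs as well. They were at 129, 15.0 and 169 FPKM in vehicle and 109, 8.34 and 149 FPKM in Chrdl1 libraries. With the block, limma called 0 of the 4 tested, and 3 were at an unadjusted p under 0.05, against 535 of all 10390 transcripts. The RGC sum was also lower in all 3 pairs, at 2328, 2070 and 2217 FPKM in vehicle and 2321, 2050 and 1971 FPKM in Chrdl1 libraries. So was the astrocyte and Müller glia sum, at 72.7, 59.7 and 89.8 FPKM in vehicle and 70.7, 52.1 and 84.9 FPKM in Chrdl1 libraries. The bipolar sum was higher in all 3, and the other marker sums differed in sign between pairs. The part of any of these markers in the Cacng3 values was not tested.

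**Figure D2:**
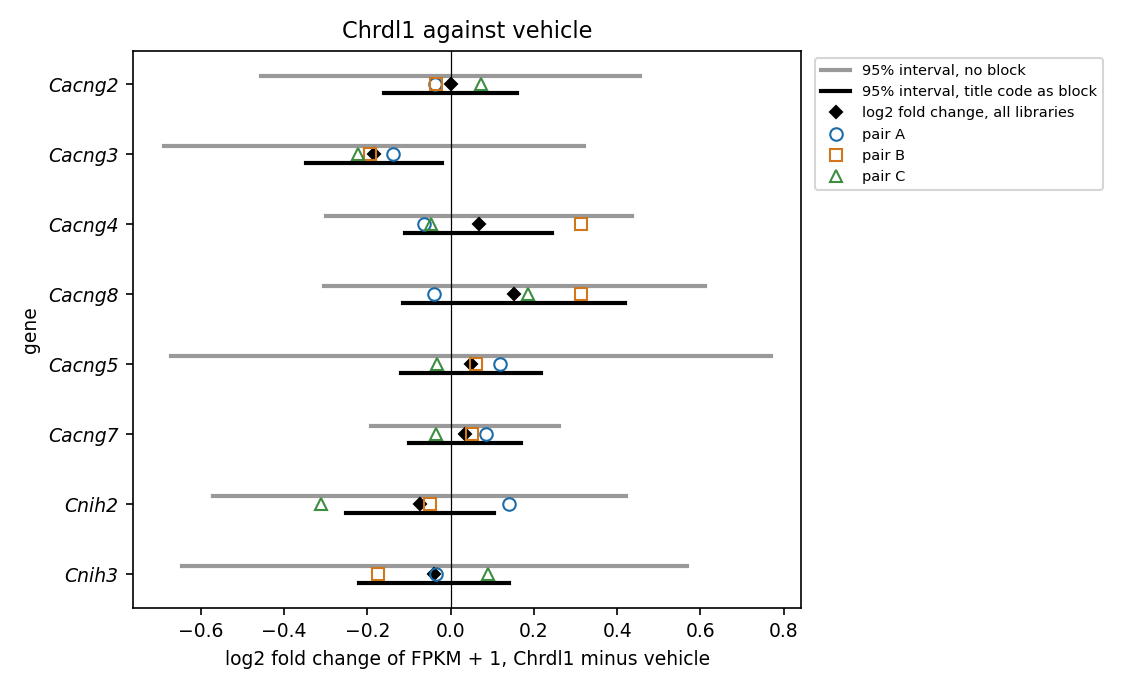
Log2 fold change of FPKM + 1, Chrdl1 minus vehicle (horizontal axis), for each gene (vertical axis); open symbols are the pairs, diamonds the fold change over all libraries, grey and black bars the 95% interval without and with the title code as a block. Cacng3 alone has all 3 pairs on 1 side of 0, from -0.14 to -0.22.

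Transcript length bears on pair C, where short transcripts were lower with Chrdl1. Members are short, from 476 to 1329 bases as listed, and the 1986 tested transcripts in that range had a median log2 fold change of -0.16 in pair C, against -0.016 and -0.030 in pairs A and B. For the members themselves the median was -0.037, 0.0091 and -0.034. With the length trend within each pair removed and the title code as a block, the members' median was 0.084 and 0 of 8 were called. Cacng3, listed at 943 bases, was at -0.12 (limma adjusted p = 0.972) in that setting, against -0.18 with the block alone. That setting was added after the data were seen.

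Levels of the auxiliary subunits differed between pairs far more than between treatments. The title code took up 68.5% (Cacng8) to 98.9% (Cacng5) of a member's variance in log2(FPKM + 1), with a median of 87.1% against 80.2% over all tested transcripts. Treatment took up a median of 2.69%, against 3.95%. A limma F test of the code, with treatment in the fit, called 6 of 8 members, in a background where 47.4% of all tested transcripts were called. Cacng7 (adjusted p = 0.135) and Cacng8 (0.122) did not pass. In bulk RNA, fewer cells of a type and less RNA per cell cannot be told apart.

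By their pair means, members took 4 different orders across the pairs, some by small steps. Cacng5 was highest in pair A, with pair means of 22.4, 13.0 and 11.8 FPKM (limma adjusted p = 2.38e-05). The difference came from pair A: pair B was lower than pair A by a log2 difference of -0.74 ± 0.095 (SE), and pair C was at -0.13 ± 0.095 from pair B. Cacng3 stepped down from A to B to C, at 19.7, 15.4 and 12.4 FPKM (adjusted p = 0.000552). Cacng4, the neighbour of Cacng5 on chromosome 10, was at 33.7, 31.8 and 25.8 FPKM (limma adjusted p = 0.0202). Its pair B was at -0.086 ± 0.10 from pair A, and both pair A libraries lay between those of pair B. In pair means, the order A above B above C held for these 3 members and for 12.3% of all tested transcripts.

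Stargazin and Cnih3 followed another order. Cacng2 had pair means of 17.4, 21.7 and 14.5 FPKM (limma adjusted p = 0.00117) and Cnih3 13.1, 18.3 and 10.4 FPKM (adjusted p = 0.000257). Pair C was below pair B by log2 differences of -0.56 ± 0.091 for Cacng2 and -0.76 ± 0.10 for Cnih3. Cacng7 had the same order, B above A above C, without passing, and so did 15.0% of all tested transcripts. Cnih2 ran against Cnih3: it was lowest in pair B, with 49.6, 32.6 and 41.95 FPKM (adjusted p = 0.00145). Its order, A above C above B, held for 12.9% of tested transcripts. Cacng8 had an order of its own, B above C above A, at 1.81, 2.63 and 2.43 FPKM, an order found for 18.2% of tested transcripts. Its pair C was at a log2 difference of only -0.074 ± 0.15 from pair B.

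Other cell types moved with the codes as well. Pair C, where Cacng2, Cacng3, Cacng4, Cacng5, Cacng7 and Cnih3 were lowest, had both libraries above all others for 4 of 4 bipolar, 5 of 5 photoreceptor, 4 of 6 astrocyte and Müller glia, 3 of 5 amacrine, 3 of 5 microglial and 3 of 4 endothelial and fibroblast markers, and for 23.4% of all tested transcripts. They were below all others for 5 of 7 RGC markers and 14.7% of tested transcripts, and above all others for 1 of 7 RGC markers, Thy1. Pair B, where Cnih2 was lowest, was below all other libraries for 4 of 5 microglial, 4 of 5 photoreceptor and 3 of 6 astrocyte and Müller glia markers, and for 20.0% of tested transcripts. It was above them for 4 of 7 RGC markers and 17.8% of tested transcripts. The amacrine sum, mostly Gad2, was highest in pair B and not in pair C, at 75.5 and 78.2 FPKM against 62.1 to 75.4 FPKM elsewhere. Several of the markers counted here were too low to be tested. Their part in the differences between codes was not tested. Without pair C, 5 of 8 members were called between pairs A and B, in a background of 39.5% of transcripts, and Cacng4 was lost (limma adjusted p = 0.441). Without pair A, 3 of 8 were called between B and C (Cacng2, Cnih2 and Cnih3; background 27.2%), and Cacng3 (0.0907), Cacng4 (0.0561) and Cacng5 (0.529) were lost. Without pair B, 6 of 8 were called between A and C, against 35.7%.

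**Figure D3:**
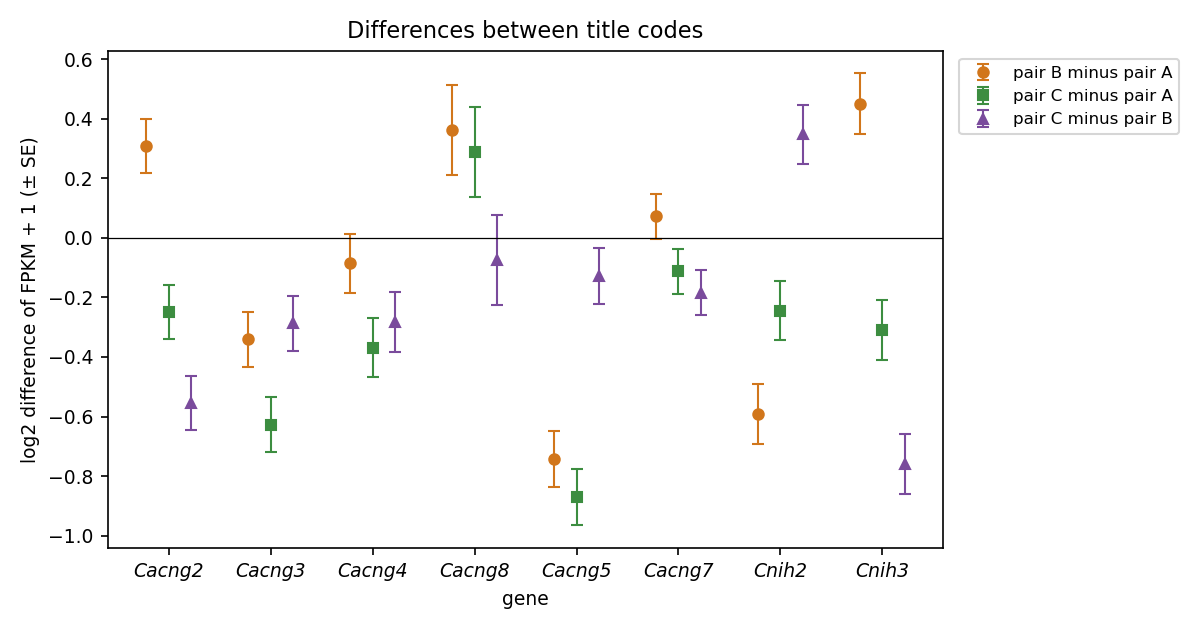
Log2 difference of FPKM + 1 between title codes (vertical axis, ± SE from the fit with treatment and code) for each auxiliary subunit (horizontal axis). Cacng5 lies near -0.74 and -0.87 for pairs B and C against pair A, while Cacng2 and Cnih3 are above 0 for B against A and below 0 for C against either.

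The make-up of the auxiliary pool shifted little between treatments. Summed FPKM of the 8 genes was 230.3, 213 and 196 in vehicle and 237, 218 and 183 in Chrdl1 libraries, with a mean of 213 in both groups. Type I TARPs made up 28.6% to 34.0% of this sum in any library, type II TARPs 41.3% to 44.2% and cornichons 22.6% to 28.9%. The type II share was higher with Chrdl1 in each pair, by 1.52, 0.598 and 1.73 percentage points, and the groups were barely separated, with the highest vehicle library at 42.84% and the lowest Chrdl1 library at 42.86%. This share was not tested, and no background for such a separation was taken. Shares are tied to each other, since any rise comes with a fall elsewhere. Those of Cacng5 and Cacng7 were also higher with Chrdl1 in each pair, and that of Cacng3 was lower in each. The shares of the remaining members differed in sign between pairs. Cacng7 alone held 32.0% to 37.8%. Cnih2 held 14.7% and 15.6% in pair B and 20.4% to 23.8% elsewhere.

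The pore subunits give the other side of the receptor. Gria1 to Gria4, encoding GluA1 to GluA4, summed to 47.9, 58.3 and 40.7 FPKM in vehicle and 48.8, 59.0 and 45.5 FPKM in Chrdl1 libraries. The summed auxiliary FPKM was 4.804, 3.65 and 4.802 times the summed pore FPKM in vehicle and 4.86, 3.69 and 4.03 times in Chrdl1 libraries. Pair B was lowest under both treatments. The Chrdl1 minus vehicle difference was 0.060, 0.042 and -0.77 in the 3 pairs, so pair C carried the mean of -0.22, which was 0.051 without it. Transcript length differs between the sides of the ratio. In pair C the median log2 fold change was -0.16 in the members' length range and 0.092 for transcripts of 4000 bases and over. Gria2, Gria3 and Gria4 are listed at 6723, 5022 and 4106 bases, and Gria1 at 2846. The part of length in the ratio was not tested. None of the 4 pore genes was called for Chrdl1 (4 of 4 fold changes positive, median 0.040), and 3 of 4, all but Gria4, were called between codes (background 47.4%).

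**Figure D4:**
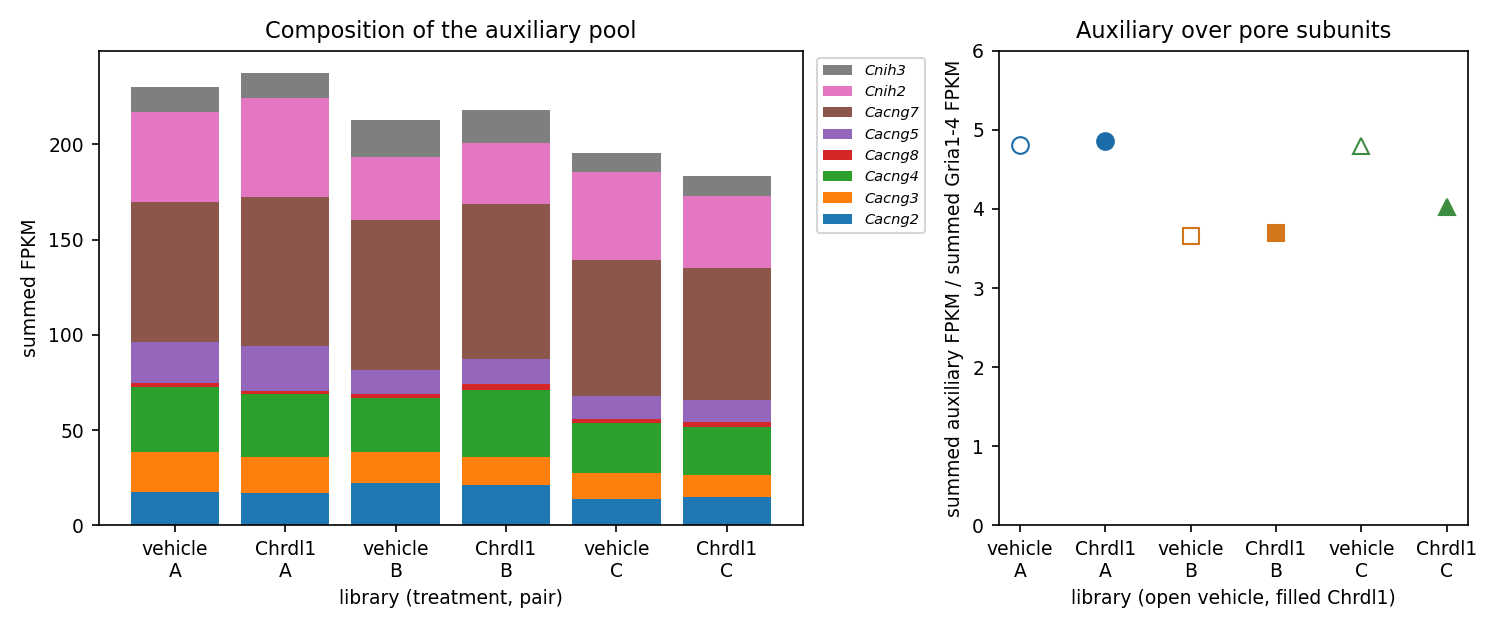
Left, summed FPKM (vertical axis, from 0) of the 8 auxiliary subunits in each library, stacked by gene; right, summed auxiliary FPKM divided by summed Gria1 to Gria4 FPKM (vertical axis) in the same libraries. Stacks reach 183 to 237 FPKM, and the ratio is lowest in pair B, at 3.65 and 3.69.

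Other proteins around the receptor were read from fixed lists. Of 16 further AMPA receptor complex and assembly genes, 15 were in the table and 14 were tested; 0 were called for Chrdl1, with 4 positive and 10 negative fold changes and a median of -0.056. Olfm1, a secreted olfactomedin found in receptor complexes, was the most abundant at 143 to 160 FPKM, followed by Nrn1 (neuritin), a lipid-anchored surface protein, at 134 to 161 FPKM. The auxiliary relatives Shisa7 and Shisa8 were at 4.47 to 5.46 and 2.15 to 4.82 FPKM, and Shisa6 was at 0.632 to 1.90 FPKM and was not tested. Between codes 5 of the 14 were called, in a background of 47.4%: Shisa8, Cpt1c (an enzyme-like protein of the endoplasmic reticulum that binds GluA1), Porcn (an acyltransferase found in receptor complexes), Syndig1 and Prrt2. Syndig1 and Prrt2 ran in opposite directions, with pair means of 2.34, 3.16 and 4.601 FPKM and of 36.7, 28.2 and 25.3 FPKM. Of the 5 scaffolds that bind TARP tails, 0 were called for Chrdl1, with a median of -0.016, and 2 were called between codes. Dlg1, encoding SAP97, had pair means of 6.22, 7.95 and 16.6 FPKM (limma adjusted p = 1.02e-05), and Magi2 was called as well. Dlg4, encoding PSD-95, was the highest at 108 to 129 FPKM, and Dlg2 was at 29.6 to 42.6 FPKM.

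Relatives of the same families that are not counted as AMPA receptor subunits were read as well. Of 9 such genes 5 were tested and 0 were called for Chrdl1, all 5 with negative fold changes and a median of -0.054. Cnih1, the cornichon of general secretory export, was at 54.5 to 61.9 FPKM in every library, above Cnih2 and Cnih3, and Cnih4 was at 20.7 to 23.1 FPKM. Neither was called between codes (limma adjusted p = 0.381 and 0.593), where Cnih2 and Cnih3 were; the difference between them was not tested. Shisa5, at 32.9, 26.8 and 37.98 FPKM in the pair means, was the only 1 of the 5 called between codes. Shisa4 and Shisa5 were at 58.6 to 79.6 and 25.4 to 38.4 FPKM. Gsg1, a relative of Gsg1l, was at 0.102 to 2.21 FPKM, with its highest values in pair C.

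Genes with a profile like the leading members were sought over the 6 libraries. The highest Pearson correlations of log2(FPKM + 1) with Cacng7 were those of Tmem57 (r = 0.988), Rab22a (0.983) and Glrb (0.983). With Cnih2 they were Degs1 (0.995), Cfl1 (0.993) and Plppr2 (0.992). These are descriptions over 6 points that share 3 codes, and 136 and 436 genes were above 0.9 for Cacng7 and Cnih2.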

How the data were processed

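Polyadenylated RNA of 6 RGC libraries had been made into stranded Illumina libraries, per the labels' protocols. FastQC, STAR 2.4.0k, HOMER 4.8.3 and build rn6 are named, without roles, per the submitters' processing notes. Annotation release, read filters and strand setting were not given in the sources used here. Next to transcript lengths, the authors deposited FPKM values. FPKM times length took even steps in each library (99.8% to 100.0% of values above 0 within rounding of 0.0005 FPKM, 3.93% to 7.08% by chance), which gave the read totals of 14546600 to 26551700 and the reads per transcript.

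The 10390 transcripts with 1 FPKM or more in 3 or more libraries entered a two-sided limma 3.58.1 fit (R 4.3.3) of log2(FPKM + 1) with a mean-variance trend, treatment as the only term, Benjamini-Hochberg adjustment over all tested, called under 0.05. Fold changes on this scale understate the change of low genes such as Cacng8. Title codes were tested with an F test in a fit with treatment. Deviations from group means correlated between partners at 0.823, 0.860 and 0.842 over tested transcripts for pairs A, B and C, so the codes were taken to pair the libraries. The fits were also run on simulated data with known changes, and how many of these they recovered is not given here. Tables were handled in Python 3.11.15 with pandas 2.3.3.

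The members and the gene and marker lists were chosen with earlier results of these data known. Named are all members, the Gria genes, the 2 highest genes of each of the other gene lists, family relatives and, for the 2 highest members, the 3 most alike genes. Other list genes and the single markers were named after their values were seen. Of the table's accessions, 16389 were found in RefSeq's GRCr8 gene table. Shisa9, Gsg1l, Frrs1l, Pou4f1 and Emx1 were not analysed here.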

Additional observations from a re-analysis of the deposited data

How the results depend on the processing

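No auxiliary subunit was called for Chrdl1 under any of the settings run (other pseudocounts, filters and normalizations, voom, the replicate block, and leaving out a library or a pair), with adjusted p from limma of 0.811 and above; a filter of 5 FPKM left Cacng8 untested. Cacng3 stayed negative and Cacng8 positive throughout, at -0.36 to -0.023 and 0.040 to 0.31 on leaving out libraries. The count of genes called for Chrdl1 was 25 without pair A and 34 without pair B, with the replicate block on 2 pairs, and 2 with voom under the block, against 0 otherwise; 0 of these were members. The sign of Cacng2 turned to 0.00025 and 8.1e-05 with pseudocounts of 0.1 and 0.5, 0.020 with quantile normalization (0.020 with the block too), 0.016 with median centring, 0.037 with voom and 0.064 with the length trend removed. Cnih3 turned to 0.022 with voom and 0.029 with the length trend removed. On leaving out a library or a pair, fold changes ran from -0.15 to 0.15 for Cacng2, -0.055 to 0.20 for Cacng4, -0.24 to 0.30 for Cacng5, -0.013 to 0.10 for Cacng7, -0.27 to 0.077 for Cnih2 and -0.25 to 0.20 for Cnih3. With the replicate block, the fit without pair A put Cacng2 at 0.019; without pair B Cacng2 was at 0.017, Cnih3 at 0.028 and Cacng4 at -0.055; without pair C Cnih2 was at 0.045 and the members' median at 0.057. Without the Chrdl1 library of pair B, Cacng4 was at -0.026. The median of the members ran from -0.055 to 0.11, and was 0.084 with the length trend removed; the cause was not tested. The auxiliary to pore ratio difference ran from -0.61 to 0.051. Between codes, 5 to 7 members were called on leaving out 1 library and 3 to 6 on leaving out a pair, and 2826 to 5581 genes over both. Cacng4 was not called without a filter (0.0908), and Cacng7 was called with quantile normalization (0.0211) or median centring (0.0193). Cacng8, at 41 to 87 reads per library, is the member most limited by depth. Leaving out pairs for the codes, the block with voom or quantile normalization and the length trend were added after seeing the data.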
